A study of Mus musculus with 16 samples.

Results

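The comparison described here sets striatum of BACHD mice injected with a control virus against striatum of control-genotype mice injected with the same kind of virus, and its members are the 8 libraries that the labels place in those groups, of 16 in the series. The 4 BACHD+Con mice carry the BACHD transgene and received the control virus. The 4 Con+Con mice have the control genotype and received the control virus. All 8 mice were harvested at 13 months of age, so both groups share the age, the region and an injection, and there is no uninjected mouse among them. The 8 other libraries come from separate mice of the same age that received a virus for Foxp2, 4 of the BACHD genotype (BACHD+Foxp2) and 4 of the control genotype (Con+Foxp2). They enter the text only where the genotypes are compared in those other mice. There the groups differ in Foxp2 as well as in genotype. Foxp2 averaged 1595 ± 288 CPM in BACHD+Foxp2 and 4015 ± 431 CPM in Con+Foxp2 (SD, n = 4 each). CPM are reads scaled to the library's total of gene reads, with that total adjusted by the trimmed mean of M values (TMM). The log2 fold change of Foxp2 was -1.33 (edgeR adjusted p = 9.64e-05). What genotype and Foxp2 level each contribute to values from those mice cannot be told apart. The sources used here do not give the sex or strain of the mice, the type of virus or the time between injection and harvest.

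Huntington disease is caused by an expanded CAG repeat in the first coding exon of the huntingtin gene, which lengthens a glutamine tract near the start of the protein. The striatum is the brain region most affected, and within it the GABAergic projection neurons that receive dopamine through the D1 or the D2 receptor. The BACHD transgene is a bacterial artificial chromosome that holds the whole human mutant huntingtin gene, expressed from human regulatory sequence beside the mouse's own gene. Many Huntington models show lower RNA of projection neuron genes such as those for the dopamine receptors, the opioid peptide precursor proenkephalin and the phosphodiesterase Pde10a, and the comparison asks how far that holds in striatum of BACHD mice that had no Foxp2 treatment.

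The place that the disease allele alters is shown first, because the counts analysed here are counts at the mouse genes. In the mouse reference (GRCm38), the coding sequence of Htt begins in exon 1 on the plus strand of chromosome 5, at chr5:34761907-34761999. After 51 coding bases comes a run of 7 glutamine codons, 6 of them CAG and 1 CAA, set in capitals.
Htt exon 1 coding start: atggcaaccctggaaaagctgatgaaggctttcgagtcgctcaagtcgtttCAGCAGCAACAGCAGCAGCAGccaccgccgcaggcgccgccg
The sources used here do not give the repeat length of the transgene. Reads were counted against the mouse genome, so a read of the human transgene that aligned to mouse Htt and a read of mouse Htt cannot be told apart.

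Htt and the gene that follows it on the chromosome, Msantd1, were the 2 genes that passed the test. The 250 bases before the transcript start of each in RefSeq's promoter table (GRCm38, plus strand) are therefore shown together. Capitals mark GGGCGG or its reverse complement CCGCCC, the core letters of a GC box, found on either strand and allowed to overlap.
Htt, chr5:34761490-34761739: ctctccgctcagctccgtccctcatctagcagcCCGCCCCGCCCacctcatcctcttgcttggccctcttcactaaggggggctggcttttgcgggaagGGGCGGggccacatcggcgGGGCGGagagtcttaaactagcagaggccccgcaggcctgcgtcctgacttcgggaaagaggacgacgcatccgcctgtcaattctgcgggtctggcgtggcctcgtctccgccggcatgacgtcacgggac
Msantd1, chr5:34915665-34915914: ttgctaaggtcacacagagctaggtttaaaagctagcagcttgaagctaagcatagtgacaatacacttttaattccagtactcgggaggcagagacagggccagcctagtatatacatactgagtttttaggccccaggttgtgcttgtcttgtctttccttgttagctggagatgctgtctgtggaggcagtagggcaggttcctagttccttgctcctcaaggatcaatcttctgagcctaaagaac
The Htt window held 4 matches and was 66.4% G and C. The Msantd1 window held 0 matches and was 46.4% G and C. Across 32851 RefSeq promoters, 32.7% held at least 1 match in a window of this length. Each window ends at the transcript start that RefSeq's promoter table uses. These starts lie inside the RefSeq genes, which begin at chr5:34761721 for Htt and chr5:34914593 for Msantd1. These are the mouse windows, and the human sequence of the transgene was not analysed here.

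Reads assigned to genes numbered 2660395 to 3014874 per library in BACHD+Con (2894572 ± 160166, SD, n = 4) and 2728388 to 3324769 in Con+Con (3092428 ± 255453, SD, n = 4). At these depths 3 reads, the most that a count of 0 allows, stand for 0.902 to 1.13 CPM before TMM adjustment, which covers counting error alone. No 2 of the 8 libraries were alike within sampling noise, since the lowest of the 28 pairwise chi-square values was 4.34 per degree of freedom. The striatal label held in every library: Ppp1r1b, the DARPP-32 phosphoprotein of projection neurons, had 412 to 728 CPM in BACHD+Con and 392 to 770 CPM in Con+Con. Markers of neighbouring tissue varied between mice within both genotypes. The mean of 15 cortical excitatory neuron markers, in log2 CPM, was 5.14, 3.02, 2.49 and 5.63 in BACHD+Con mice 1 to 4 and 4.44, 3.97, 5.88 and 2.50 in Con+Con mice 1 to 4. The mean of 12 choroid plexus markers was 1.52, 6.42, 1.57 and 2.38 in BACHD+Con and 6.34, 2.16, 4.75 and 5.01 in Con+Con. Of the 100 genes that varied most across the 8 libraries, 11 were choroid plexus markers and 10 were cortical markers.

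**Figure D1:**
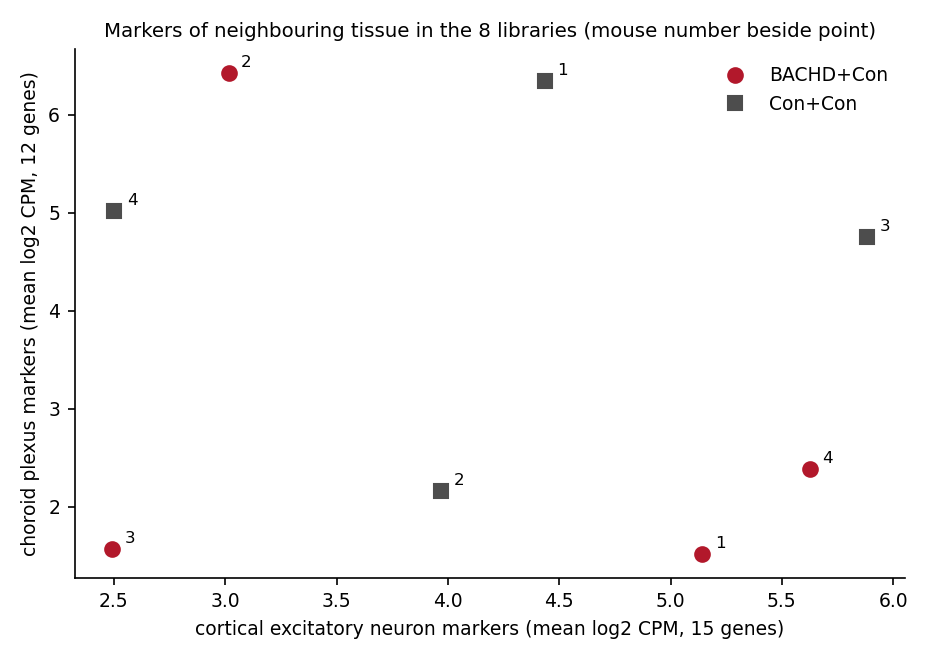
Mean log2 CPM of 15 cortical excitatory neuron markers (x axis) against the mean log2 CPM of 12 choroid plexus markers (y axis), 1 point per library, circles for BACHD+Con and squares for Con+Con, with the mouse number beside each point. Both genotypes span the cortical axis, from 2.49 to 5.63 in BACHD+Con and from 2.50 to 5.88 in Con+Con, and 1 of 4 BACHD+Con libraries against 3 of 4 Con+Con libraries lie above 4 on the choroid plexus axis.

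Huntingtin was the clearest difference between the genotypes. Htt had 571, 470, 767 and 622 CPM in BACHD+Con mice, against 264, 265, 323 and 294 CPM in Con+Con mice. Every BACHD+Con mouse lay above every Con+Con mouse, and the lowest transgenic value was above the highest control value. Htt averaged 607 ± 123 CPM in BACHD+Con and 286 ± 27.8 CPM in Con+Con (SD, n = 4 each), a 2.12-fold difference with a 95% interval of 1.78 to 2.53. On the log2 scale, where a fold change is BACHD+Con over Con+Con throughout, it was 1.08 ± 0.12 (SE), with an adjusted p of 9.39e-05 (edgeR's quasi-likelihood test, Benjamini-Hochberg over all tested genes). An exact two-sided permutation test of the 8 log2 CPM values gave p = 0.0286, the smallest that 4 mice against 4 allow. The labels of genotype and the counts at Htt therefore go together in all 8 mice.

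Msantd1, named for a Myb/SANT-like DNA-binding domain, lies directly after Htt on the same strand. It had 62, 87, 145 and 51 reads in BACHD+Con mice (21.3, 28.7, 48.7 and 19.7 CPM), against 12, 6, 11 and 4 reads in Con+Con mice (3.54, 1.93, 3.54 and 1.49 CPM). The groups did not overlap, and BACHD+Con mouse 3 was the highest for both Msantd1 and Htt. The mean was 29.6 ± 13.3 CPM in BACHD+Con and 2.62 ± 1.07 CPM in Con+Con (SD, n = 4 each), an 11.0-fold difference with a wide 95% interval of 4.97 to 24.3 (log2 fold change 3.46 ± 0.55, SE; edgeR adjusted p = 0.0160). That call rests on few reads in Con+Con. It was lost, with Htt then the only gene called, without BACHD+Con mouse 3 (log2 fold change 3.10, adjusted p = 0.127) and without Con+Con mouse 1, 2 or 4 (3.64, 3.33 and 3.28, adjusted p = 0.0700, 0.143 and 0.139). In a fit chosen after seeing the data, without the 3 libraries lowest in cortical markers, Htt stood at 1.07 and was called (adjusted p = 0.000341) and Msantd1 stood at 2.76 and was not (adjusted p = 0.988).

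**Figure D2:**
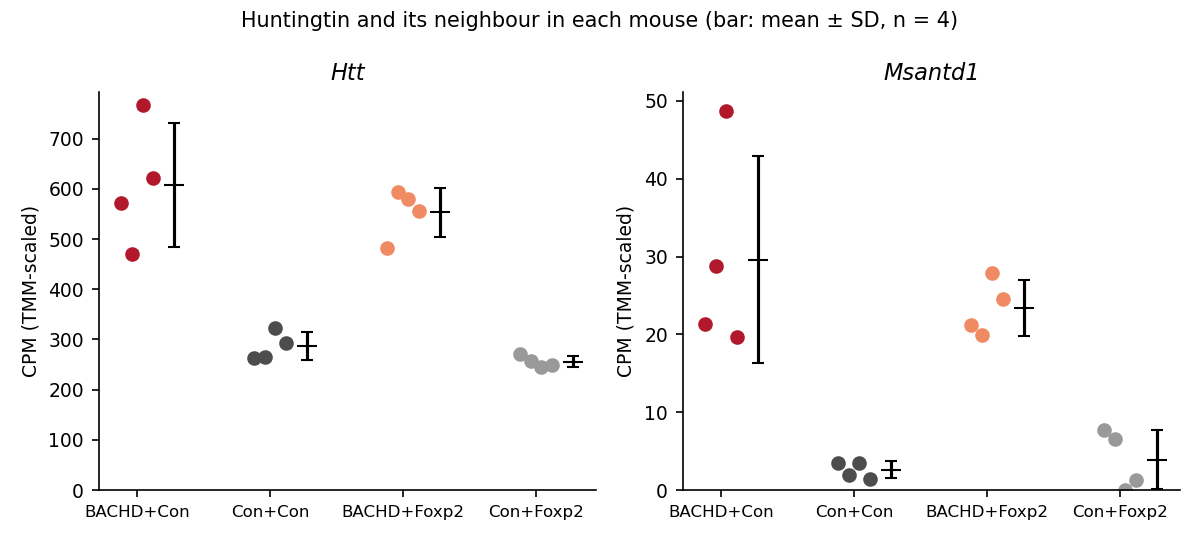
TMM-scaled CPM (y axes, linear, from 0) of Htt (left) and Msantd1 (right) in each of the 16 mice, by group on the x axis, with the group mean and SD (n = 4) beside the points. In both genes and under both viruses every BACHD mouse lies above every control-genotype mouse, with Htt at 470 to 767 CPM in BACHD+Con against 264 to 323 CPM in Con+Con.

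Both genes were also higher with the transgene in every one of the mice given the Foxp2 virus, which are other animals. Htt had 483, 594, 579 and 555 CPM in BACHD+Foxp2 and 272, 258, 246 and 248.7 CPM in Con+Foxp2, a log2 fold change of 1.11 (edgeR adjusted p = 6.36e-05). Msantd1 had 21.2, 19.97, 27.9 and 24.6 CPM in BACHD+Foxp2 and 7.73, 6.54, 0 and 1.37 CPM in Con+Foxp2, a log2 fold change of 2.58 that missed the threshold (edgeR adjusted p = 0.0768). Neither genotype difference was called different between the viruses: the difference of the log2 fold changes was 0.03 (95% interval -0.33 to 0.38) for Htt and -0.88 (-2.46 to 0.70) for Msantd1.

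The neighbours of Htt on the mouse chromosome are described next, as counts at mouse genes. In GENCODE, Htt spans chr5:34761740-34912534 and Msantd1 spans chr5:34908012-34923839, so the annotated genes overlap by 4523 bases. In RefSeq, Msantd1 begins 2058 bases after the end of Htt and there is no overlap. The sources used here do not say which annotation was counted. Both genes lie on the plus strand, so a strand setting would not separate their reads. Whether reads from the end of Htt entered the Msantd1 count was not tested. Reads that the counting left out as ambiguous were 0.227% to 0.256% of listed reads in these libraries. Whether the Msantd1 reads come from the mouse gene, from the transgene or from the overlap cannot be told apart with these counts.

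Beyond these 2 genes the locus showed no call. Of 14 genes listed around Htt, 13 had enough reads to be tested, and the 11 others had log2 fold changes of -1.09 to 0.37 with none called. Grk4, a receptor kinase gene that ends before Htt starts, was at -0.32 (95% interval -1.28 to 0.65), and Rgs12, a regulator of G protein signalling beyond Msantd1, was at -0.16 (-0.74 to 0.41). Well-counted neighbours were held to narrow intervals: Add1, encoding the membrane skeleton protein adducin, was at -0.07 (-0.29 to 0.16) and Lrpap1, encoding a chaperone of lipoprotein receptors, was at -0.003 (-0.26 to 0.26). Dok7, an adaptor of the muscle-specific kinase MuSK, was the widest departure, with 3.44, 2.31, 1.68 and 2.31 CPM in BACHD+Con against 6.49, 5.47, 5.14 and 3.72 CPM in Con+Con. Those groups did not overlap, but the unadjusted edgeR p was 0.0343 on 28 and 65 reads, and the log2 fold change was 0.53 in the Foxp2 virus mice.

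**Figure D3:**
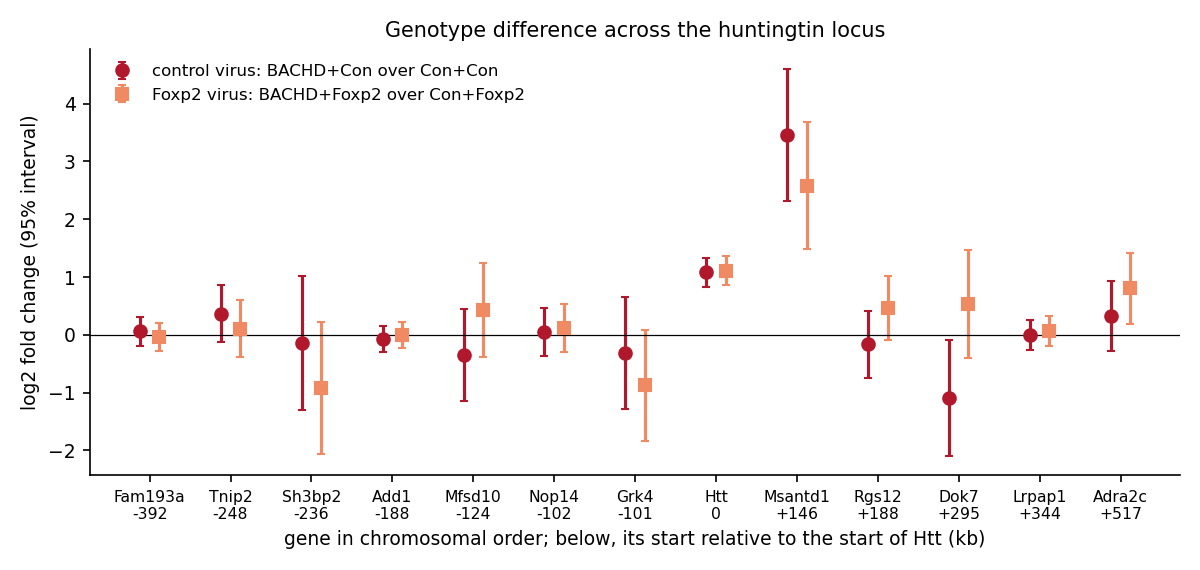
Log2 fold change between genotypes (y axis, bars 95% intervals) for the 13 tested genes around Htt in chromosomal order, with each start relative to that of Htt in kb on the x axis; circles are BACHD+Con over Con+Con and squares are BACHD+Foxp2 over Con+Foxp2. The intervals of Htt and Msantd1 lie above 0 under both viruses. That of Adra2c lies above 0 under the Foxp2 virus only (0.80, 0.19 to 1.42). That of Dok7 lies below 0 under the control virus only (-1.09, -2.09 to -0.09). Apart from Htt and Msantd1, no gene of the 13 was called under the control virus.

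Across the whole transcriptome the genotype difference was small in number. Of 13563 genes tested, 2 were called at an adjusted p under 0.05 (0.0147%), both higher in BACHD+Con, and 0 were lower. Log2 fold changes were balanced around 0, with 6797 genes higher and 6765 lower in BACHD+Con, a median absolute value of 0.158 and a 5% to 95% range of -0.59 to 0.53. At an unadjusted p under 0.05 stood 466 genes (3.44%), 218 higher (1.61%) and 248 lower (1.83%). The groups did not overlap for 329 genes (2.43%), 161 higher (1.19%) and 168 lower (1.24%). For the 6112 genes above 5 in mean log2 CPM the median half-width of the 95% interval was 0.35. That interval is not adjusted for the number of genes tested, and larger differences, such as that of Lars2 at 0.59, were not called. DESeq2 on the same counts called 3 genes, Htt, Msantd1 and Lars2. The authors' deposited table of the same groups listed the same 3 at an adjusted p under 0.05 of 18992 genes with one. Its direction is not written in the file and is read from the sign at Htt as BACHD+Con over Con+Con. In the authors' deposited table the log2 fold changes were 1.21 for Msantd1, 0.89 for Htt and 0.51 for Lars2. The edgeR fit gave these genes 3.46, 1.08 and 0.59. The gap was wide for genes with few reads, such as Slc25a32 (0.55 in the deposited table, 1.93 in the fit) and Jchain (-0.04 and -4.84). The sizes are therefore not on a like scale and are not compared.

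The genes next in order of unadjusted p are given as values only, since none passed the edgeR test. Lars2, the mitochondrial leucyl-tRNA synthetase, had 199, 241, 219 and 262 CPM in BACHD+Con against 150, 161, 159 and 140 CPM in Con+Con. The groups did not overlap and the log2 fold change was 0.59 (95% interval 0.34 to 0.84), with an edgeR adjusted p of 0.259 and a DESeq2 adjusted p of 0.0215. In the Foxp2 virus mice it was 0.10. Rmrp, the RNA component of the RNase MRP complex, had 589, 637, 585 and 506 CPM in BACHD+Con against 350, 439, 405 and 465 CPM in Con+Con, and Snord22, a small nucleolar RNA, stood at a log2 fold change of 0.67. In the Foxp2 virus mice both noncoding RNAs were at -0.03.

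Among protein-coding genes of low count, Slc25a32, a mitochondrial folate carrier, had 7.22, 12.2, 13.4 and 11.9 CPM in BACHD+Con against 4.13, 0.965, 3.86 and 2.60 CPM in Con+Con. Pex26, which anchors the peroxisomal import machinery, had 25.8, 22.8, 30.9 and 25.1 CPM in BACHD+Con against 10.03, 18.3, 11.6 and 14.9 CPM in Con+Con. Neither gene overlapped between the groups, and their log2 fold changes of 1.93 and 0.93 compare with 0.63 and 0.31 in the Foxp2 virus mice. Plcxd3, a phospholipase C-domain protein, stood at 1.38 with overlap and at -0.07 in the Foxp2 virus mice.

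More of these genes were lower in BACHD+Con. Npas4, a transcription factor induced by neuronal activity, had 16.8, 6.94, 15.1 and 13.1 CPM in BACHD+Con against 18.6, 38.0, 27.0 and 42.0 CPM in Con+Con (log2 fold change -1.27). Atm, the kinase that signals DNA breaks, had 50.2, 51.5, 59.1 and 45.1 CPM in BACHD+Con against 75.5, 76.2, 82.9 and 63.2 CPM in Con+Con (-0.53). Optn, the autophagy receptor optineurin and a binding partner of huntingtin, had 26.5, 26.4, 24.2 and 23.5 CPM in BACHD+Con against 46.3, 31.5, 36.6 and 36.5 CPM in Con+Con (-0.59). For each of the 3 genes every BACHD+Con mouse lay below every Con+Con mouse. The Foxp2 virus mice gave -0.77, -0.37 and -0.45 for Npas4, Atm and Optn, with unadjusted edgeR p of 0.0489, 0.0208 and 0.0208.

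Others of the low set did not keep their direction or size in those mice. Car2, carbonic anhydrase 2 of oligodendrocytes and choroid plexus, had 142, 156, 104 and 113 CPM in BACHD+Con against 240, 189, 174 and 232 CPM in Con+Con. Its log2 fold change was -0.70 here and 0.02 under the Foxp2 virus. Stx3, a syntaxin of membrane fusion, was at -0.62 under the control virus and 0.09 under the Foxp2 virus, and Zfp942, a zinc finger gene, at -0.93 under the control virus and 0.22 under the Foxp2 virus. Under the control virus Rev3l, the catalytic subunit of DNA polymerase zeta, was at -0.35, Slc38a9, a lysosomal arginine sensor, at -0.73 and Thsd4, an extracellular matrix protein, at -1.36. Under the Foxp2 virus Rev3l was at -0.13, Slc38a9 at -0.16 and Thsd4 at -0.27. Jchain, the joining chain of antibodies, had 1 read in the 4 BACHD+Con libraries and 45 in Con+Con, all 45 in mice 2 and 3. Con+Con mice 1 and 4 had 0, like most BACHD+Con mice. In the Foxp2 virus mice Jchain was at -0.13, with a mean of 11.2 CPM in BACHD+Foxp2 and 12.2 CPM in Con+Foxp2. The ratio of its read rates under the control virus, Con+Con over BACHD+Con, was 42.1 with a counting interval of 7.18 to 1700.2. Nrm, which encodes the nuclear envelope protein nurim, had 1 read in BACHD+Con and 27 in Con+Con. That is a ratio of 25.3 with an interval (4.17 to 1034.72) that covers counting error only. In the Foxp2 virus mice the log2 fold change of Nrm was 0.18.

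The genes that are known to fall in Huntington models did not fall together in BACHD+Con. All 32 genes of that list were tested. None was called, 15 were higher and 17 lower, and the median log2 fold change was -0.01, against 0.0005 for all tested genes. Leaving out single mice gave medians of -0.13 to 0.11. The 95% interval lay wholly above -1 for 30 of the 32 and wholly above -0.58 for 25, and it covered 0 for 30. The 2 whose interval reached below -1 were Actn2 and Gpr6. The 2 whose interval left out 0 were Actn2 and Pdyn, in opposite directions.

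The receptors and signalling enzymes of projection neurons overlapped between the genotypes. Drd1, the D1 dopamine receptor of direct pathway neurons, had 119, 127, 174 and 114 CPM in BACHD+Con against 97.9, 214, 91.6 and 148 CPM in Con+Con. Drd2, the D2 receptor of indirect pathway neurons, had 71.8, 103, 120 and 80.2 CPM in BACHD+Con against 81.7, 134, 72.3 and 125 CPM in Con+Con. The BACHD+Con range lay inside the Con+Con range for Drd1 and began just below it for Drd2, with log2 fold changes of -0.05 (95% interval -0.48 to 0.39) and -0.13 (-0.56 to 0.29). Adora2a, the striatal adenosine receptor that pairs with D2, was at -0.29 (-0.89 to 0.31) and Cnr1, the CB1 cannabinoid receptor, at -0.17 (-0.60 to 0.26). Pde10a, the cyclic nucleotide phosphodiesterase of projection neurons, had 1142, 1371, 1569 and 1051 CPM in BACHD+Con against 1082, 1966, 898 and 1787 CPM in Con+Con (-0.16, -0.54 to 0.22). Pde1b, a calcium-dependent phosphodiesterase, was at -0.03 and Ppp1r1b at -0.01. In Con+Con the 2 mice high in Drd1, Drd2 and Pde10a, mice 2 and 4, were the 2 lowest of that group in cortical markers, and in BACHD+Con the same held for mice 2 and 3; the part of the dissection in these values was not tested.

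Among the peptide precursors, prodynorphin alone had an interval above 0. Pdyn, which encodes it in direct pathway neurons, had 70.1, 91.5, 137 and 63.2 CPM in BACHD+Con against 57.2, 67.2, 46.3 and 54.7 CPM in Con+Con. BACHD+Con mouse 4 lay below the highest Con+Con mouse, and the log2 fold change was 0.68 (0.17 to 1.19). It was 0.40 without BACHD+Con mouse 3 and 0.23 without the 3 libraries lowest in cortical markers. In the Foxp2 virus mice it was 0.65. The unadjusted edgeR p was 0.0108 under the control virus and 0.0148 under the Foxp2 virus. Tac1, the substance P precursor of the same neurons, was at 0.18 (-0.36 to 0.71) and Penk, the enkephalin precursor of indirect pathway neurons, at 0.05 (-0.40 to 0.50).

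Actn2, an actin cross-linking protein of dendritic spines, was the projection neuron gene with the lowest p. It had 72.9, 66.4, 76.2 and 52.0 CPM in BACHD+Con against 95.6, 175, 64.0 and 132 CPM in Con+Con. Con+Con mouse 3 lay inside the BACHD+Con range, and the other 3 Con+Con mice lay above it. The log2 fold change was -0.80 (-1.25 to -0.35), and it was -0.67 in the Foxp2 virus mice. The unadjusted edgeR p was 0.00123 under the control virus and 0.00604 under the Foxp2 virus. Scn4b, a sodium channel subunit, was at -0.36 (-0.74 to 0.02) here and 0.20 under the Foxp2 virus. Rgs4 and Rgs9, regulators of G protein signalling, were at -0.25 and -0.22. Of the 32 genes on the list, 28 were higher in BACHD+Foxp2 than in Con+Foxp2, with a median of 0.13. The difference between the viruses was not called for any of them, since 0 of 13563 genes passed edgeR's test of that interaction (516 at an unadjusted p under 0.05, 3.8%, and 3 called by DESeq2).

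Foxp2 itself, the gene delivered by the other virus, checks that neither group had received it. It had 87.3, 129, 153 and 105 CPM in BACHD+Con against 98.5, 150, 93.2 and 130 CPM in Con+Con. The ranges overlapped almost wholly and the log2 fold change was 0.01 (-0.33 to 0.35). Bdnf, the neurotrophin that cortical axons supply to the striatum, had 5.84, 2.97, 2.01 and 13.1 CPM in BACHD+Con against 7.38, 4.18, 3.21 and 0.372 CPM in Con+Con. The ranges overlapped, and the log2 fold change of 0.61 had an interval of -0.80 to 2.03.

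**Figure D4:**
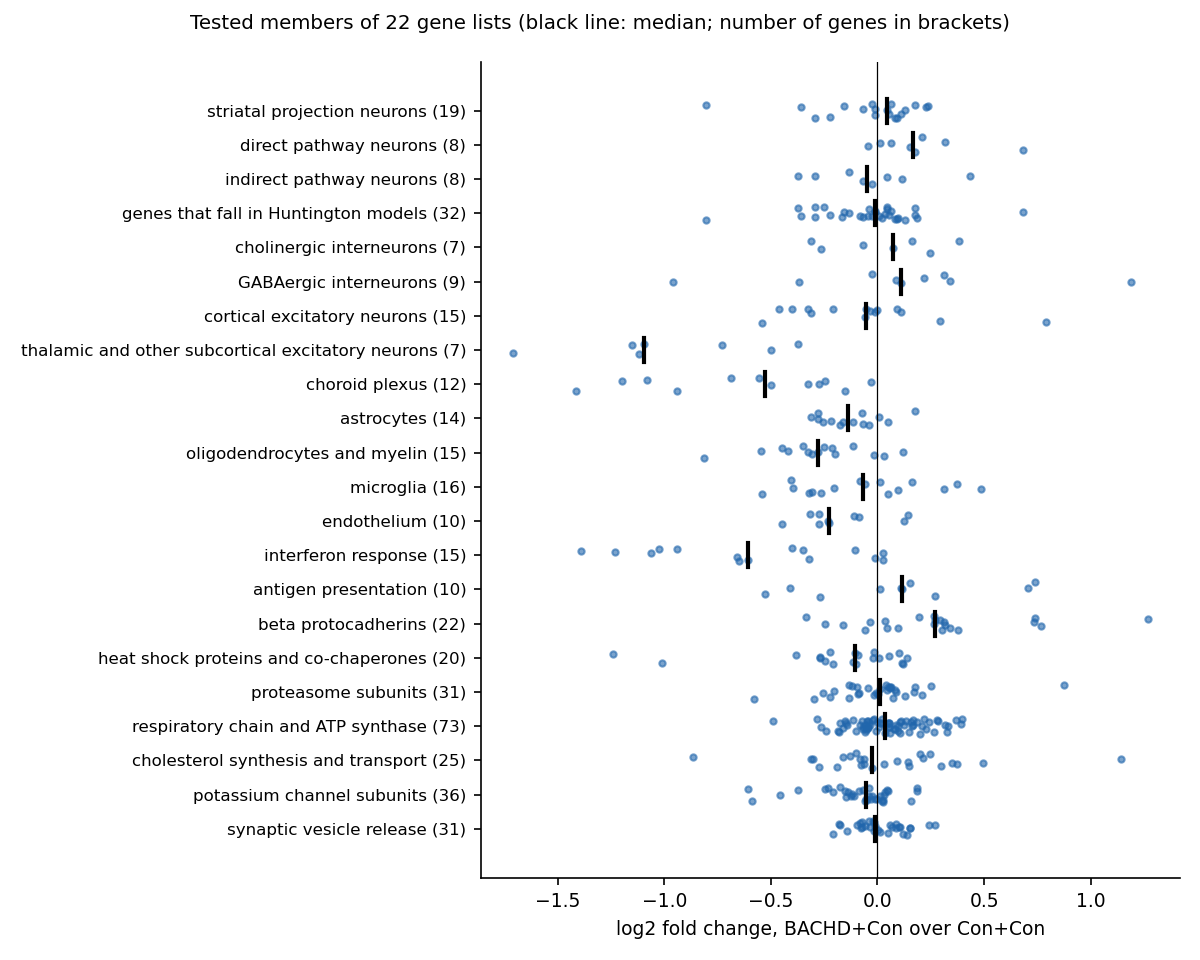
Log2 fold change of BACHD+Con over Con+Con (x axis) for each tested member of 22 gene lists (rows), 1 point per gene, with the median as a black line and the number of tested members in brackets. Most medians sit near 0, the 32 genes that fall in Huntington models have a median of -0.01, and the thalamic, choroid plexus and interferon lists have medians of -1.09, -0.53 and -0.61.

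Read by neuron class, no list held a called gene. In bulk tissue, fewer cells of a type and less RNA per cell cannot be told apart. Of 19 projection neuron markers 10 were higher and 9 lower in BACHD+Con (median 0.05). Of 8 direct pathway markers 7 were higher (0.17), and of 8 indirect pathway markers 3 were higher (-0.05). None of these 3 medians kept its sign when single mice were left out: that of projection neurons was -0.09 without BACHD+Con mouse 3, that of the direct pathway -0.03 without the same mouse, and that of the indirect pathway 0.09 without Con+Con mouse 4. Cholinergic interneuron genes had 4 of 7 higher (0.07), among them Chat, the acetylcholine-synthesising enzyme, at 0.38. GABAergic interneuron genes had 6 of 9 higher (0.11), and Pvalb, the calcium-binding parvalbumin of fast-spiking cells, stood lowest at -0.96 with 35.4, 19.8, 16.8 and 27.7 CPM in BACHD+Con against 58.4, 25.7, 38.9 and 71.1 CPM in Con+Con. Those ranges overlapped, the unadjusted edgeR p was 0.0213, and the Foxp2 virus mice gave 0.07. The mice highest for Pvalb, Con+Con mice 1 and 4, were also the highest in thalamic and other subcortical markers. The part of the dissection in the Pvalb values was not tested.

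Most glial and vascular lists had medians below 0, with no gene called. Of 15 oligodendrocyte and myelin genes 13 were lower in BACHD+Con (median -0.28), and the list's mean log2 CPM was 7.13, 7.39, 6.96 and 6.92 in BACHD+Con against 7.49, 7.11, 7.17 and 7.71 in Con+Con. The ranges of these means overlapped. The 2 highest means were those of Con+Con mice 1 and 4, which were also the 2 highest in thalamic and other subcortical markers, and the part of the dissection in these values was not tested. Without Con+Con mouse 4 the median of the list was -0.14. Aspa, which cleaves N-acetylaspartate in oligodendrocytes, was lowest at -0.82, with 15.5, 13.5, 12.8 and 16.2 CPM in BACHD+Con against 30.1, 23.8, 20.6 and 27.5 CPM in Con+Con and no overlap. Ugt8a, which makes myelin galactolipids, stood at -0.55. In the Foxp2 virus mice 14 of the 15 were higher in BACHD+Foxp2, with a median of 0.17.

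Of 14 astrocyte genes 11 were lower in BACHD+Con (median -0.14), with the glutamate transporter Slc1a2 at -0.17 and the intermediate filament Gfap at -0.31 (-0.72 to 0.10). Microglial genes were split, with 7 of 16 higher (-0.07). Cx3cr1, the fractalkine receptor of microglia, had 28.5, 23.1, 28.9 and 28.9 CPM in BACHD+Con against 44.0, 37.0, 35.04 and 43.5 CPM in Con+Con, without overlap (-0.54, and 0.07 under the Foxp2 virus). Ctss, the protease cathepsin S, was at -0.31. Endothelial genes had 8 of 10 lower (-0.23), mural genes 5 of 8 (-0.19), and oligodendrocyte precursor genes 5 of 6 higher (0.03). Of 8 tested genes of reactive astrocytes 3 were higher (-0.10), and of 6 ependymal genes 2 were higher (-0.10). Of 5 red blood cell genes 1 had enough reads to be tested.

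In the lists for tissue next to the striatum most markers were lower in BACHD+Con, and the medians moved widely when single mice were left out. All 7 markers of thalamic and other subcortical excitatory neurons were lower in BACHD+Con (median -1.09). Their summed level was 195.9, 141.7, 93.7 and 119.1 CPM in BACHD+Con against 435.2, 112.9, 133.7 and 336.7 CPM in Con+Con, so Con+Con mice 1 and 4 stood above the other 6 mice. Tcf7l2, a transcription factor of thalamic neurons, was at -1.15 here and -1.19 in the Foxp2 virus mice. There it had 39.1, 19.6, 23.7 and 23.3 CPM in BACHD+Foxp2 against 40.6, 139.7, 26.5 and 35.2 CPM in Con+Foxp2, so Con+Foxp2 mouse 2 stood far above the rest. Ramp3, a receptor activity modifier, was at -1.71 under the control virus and -0.18 under the Foxp2 virus. Without Con+Con mouse 1 the median of this list was -0.58. All 12 choroid plexus markers were lower (-0.53), with a summed level of 121.7, 11122, 154.8 and 324.9 CPM in BACHD+Con against 7931, 239.4, 3053 and 3491 CPM in Con+Con. The size and the direction of the choroid plexus median depended on single mice. It was -3.73 without BACHD+Con mouse 2, and it changed sign to 0.27 without Con+Con mouse 1. Cortical excitatory genes had 11 of 15 lower (-0.05), a median with no settled direction, since it was -0.68 without BACHD+Con mouse 4 and 0.94 without Con+Con mouse 3. Rorb, a nuclear receptor of cortical and thalamic neurons, was at -0.54. None of these markers was at 0 in all 4 libraries of a group.

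Immune genes did not share a direction. Of 22 interferon-induced genes 15 could be tested, 13 of them were lower in BACHD+Con and the median was -0.61. The list's mean log2 CPM was 2.24, 3.10, 2.36 and 2.05 in BACHD+Con against 3.32, 3.24, 2.81 and 2.77 in Con+Con, with BACHD+Con mouse 2 inside the Con+Con range. That mouse was also the one with the most choroid plexus RNA, and without it the median was -1.001; the part of choroid plexus RNA in these values was not tested. Ddx58, the cytosolic RNA sensor RIG-I, had 6.19, 8.59, 2.69 and 5.01 CPM in BACHD+Con against 12.7, 13.8, 11.3 and 9.30 CPM in Con+Con, without overlap (-1.06). Ifih1, the related sensor MDA5, was at -1.23 and the guanylate-binding protein Gbp3 at -1.39. In the Foxp2 virus mice the list's median was -0.08. Of 10 tested antigen presentation genes 7 were higher (0.11).

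Genes of protein quality control stayed close to the median of all genes. Heat shock proteins and co-chaperones had 14 of 20 lower in BACHD+Con (median -0.10), with Dnaja1, a partner of Hsp70, at 37.1, 38.3, 34.6 and 36.2 CPM in BACHD+Con against 46.0, 49.9, 43.7 and 51.0 CPM in Con+Con. Those 4 and 4 values did not overlap (-0.38, and 0.04 under the Foxp2 virus), and Hspb8, a small heat shock protein, stood at -1.01 under the control virus and 0.48 under the Foxp2 virus. Proteasome subunits had 17 of 31 higher (0.01), with Psma3, a subunit of its outer ring, at 0.88. Genes of the unfolded protein and integrated stress response had 9 of 12 lower (-0.08), and autophagy genes 12 of 20 lower (-0.07), Optn among them. Of 21 tested huntingtin partners, a list that holds Htt itself, 13 were higher (0.02).

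Energy and lipid genes were equally near 0. Of 73 genes of the respiratory chain and ATP synthase 41 were higher in BACHD+Con (median 0.04), and the mean of the list lay at 5.92 ± 0.02 log2 CPM in BACHD+Con and 5.88 ± 0.06 in Con+Con (SD, n = 4 each). Sdhb, the iron-sulphur subunit of complex II, was the one at an unadjusted p under 0.05, with a log2 fold change of 0.33. Cholesterol synthesis and transport genes, which fall in several Huntington models, had 12 of 25 higher (-0.03), with Ebp, a sterol isomerase, at -0.86.

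Synaptic and excitability genes gave the same picture. Glutamate receptor subunits had 12 of 22 higher (median 0.03), GABA receptor subunits 9 of 14 (0.02), synaptic vesicle genes 15 of 31 (-0.01) and genes of axon guidance and adhesion 18 of 35 (0.002). Potassium channel subunits had 24 of 36 lower (-0.05), and Kcnip4, an auxiliary subunit of A-type channels, stood at -0.61 with 23.7, 24.8, 33.2 and 23.5 CPM in BACHD+Con against 44.8, 34.1, 46.3 and 35.3 CPM in Con+Con, without overlap. Unc13a, a priming factor of vesicle release, was at 0.27. Neuromodulator receptors had 17 of 27 lower (-0.05), with the delta opioid receptor Oprd1 at -0.75. Neurotrophic factors and receptors had 9 of 16 lower (-0.01).

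Immediate early genes, which report recent neuronal activity, were split. Of 18 tested genes 7 were higher in BACHD+Con (median -0.02). Npas4 stood lowest, while Fosb, a subunit of the AP-1 factor, had 19.6, 23.8, 12.1 and 19.7 CPM in BACHD+Con against 16.2, 8.04, 6.43 and 14.1 CPM in Con+Con (0.74) and Jun, another subunit, was at -0.42. The beta protocadherins, a cluster of cell adhesion genes with a role in neuronal identity, had 17 of 22 higher (0.27), led by Pcdhb20 at 0.74 and Pcdhb3 at 0.73. Without BACHD+Con mouse 3, which had 34.9 CPM of Pcdhb20 against 18.9 to 20.04 CPM in the other 3 mice of its group, the median of the family was 0.09. In the Foxp2 virus mice it was 0.01. Of 29 developmental regulators that Polycomb complexes keep silent in adult neurons, 10 passed the read filter, which was applied to all 16 libraries. Of these 10, 4 were higher and the median was -0.12. Several were almost unread in the 8 libraries compared. Total reads, BACHD+Con against Con+Con, were 0 against 9 for Pou4f1, 5 against 0 for Pax7 and 3 against 0 for Cdx2. Pax6 was better covered, at 158 against 188. The median therefore rests partly on very few reads, and no direction is drawn from it.

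The genotypes were also compared across all genes in the Foxp2 virus mice, where the lower Foxp2 of BACHD+Foxp2 goes with the genotype. Those mice gave 8 called genes (0.059%), Htt and Foxp2 among them, and 567 at an unadjusted p under 0.05 (4.18%). The differences under the 2 viruses had the same sign in 6951 of the 13563 genes (51.2%). Among the 466 genes at an unadjusted p under 0.05 under the control virus it was the same in 248 (53.2%). The 218 higher genes had a median log2 fold change of 0.58 under the control virus, by which they were picked, and 0.003 under the Foxp2 virus, where 110 kept their sign. The 248 lower genes had medians of -0.61 and -0.05, and 138 kept their sign. At an unadjusted p under 0.05 in both sets of mice with the same sign stood 21 of the 466 genes, 8 of the 218 higher and 13 of the 248 lower. In either direction, 4.18% of all tested genes passed that threshold under the Foxp2 virus. That share counts both signs, whereas the 21 genes had to keep their sign, so it is not a like measure. A share restricted to 1 sign was not computed, and neither an excess nor a lack is read from these counts. Among the 21 were Htt, Msantd1, Actn2, Pdyn, Atm, Npas4, Optn and Tcf7l2, and of these only Htt was called in both sets.

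**Figure D5:**
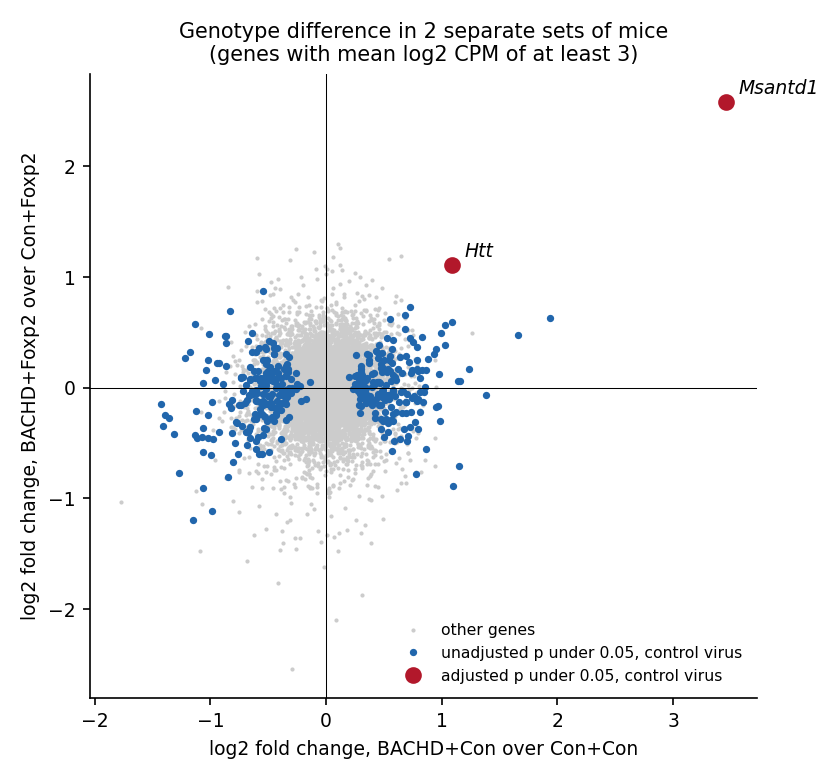
Log2 fold change of BACHD+Con over Con+Con (x axis) against that of BACHD+Foxp2 over Con+Foxp2 (y axis) for the 10961 genes whose mean log2 CPM reached 3; blue points are the 384 of them at an unadjusted p under 0.05 under the control virus and red points are the 2 called genes. Htt and Msantd1 stand at the upper right, and the blue points spread about 0 on the y axis.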

How the data were processed

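Striatal RNA of 16 mice was sequenced, and 8 libraries form the comparison described. Per the labels' protocols, RNA came from a Qiagen lipid tissue kit, libraries from Clontech SMARTer chemistry, and sequencing from an Illumina HiSeq instrument. Per the submitters' processing notes the tools were STAR 2.4.0, HTSeq and DESeq2, with build mm10; the sources used here do not give the annotation or the strand setting of the counting. The authors deposited whole-number read counts per gene symbol, not normalized. Summary lines that name no gene entered neither library sizes nor tests; gene reads were 22.5% to 24.3% of listed reads, reads outside features 38.7% to 43.4% and multiply aligned reads 33.8% to 37.2%. The authors' deposited comparison table holds, per gene, a log2 fold change, a p-value and adjusted p-value, and a mean normalized signal, of the form DESeq2 writes.

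Counts of all 16 libraries were fitted with edgeR 4.0.16 in R 4.3.3: filterByExpr (13563 genes), trimmed mean of M values (TMM), a mean per group (12 residual degrees of freedom), quasi-likelihood tests, two-sided, and Benjamini-Hochberg adjustment over all tested genes, with genes called at an adjusted p under 0.05. CPM values are TMM-scaled. List means are of log2 CPM (prior count 2). A gene is called non-overlapping when all 4 values of a group lie above all 4 of the other. Named are a panel of 16 striatal genes, every called gene, the genes of lowest unadjusted p up to 20, up to 3 members per list by unadjusted p, and the genes around Htt. Some genes that this rule names are not reported here. Gene lists are described by counts and medians, without a test. The members and lists were chosen with earlier results of these data known. The fitting code was tested on simulated data. Alternatives were other size factors, no filter, the 8 libraries alone, a replicate block, each library left out, DESeq2 1.42.0, and 2 alternatives on cortical markers added after seeing the data. The labels give 4 mice per group and no sequencing batch. Coordinates are GRCm38 (GENCODE M21, RefSeq where named), and 23641 of 24421 symbols matched those annotations.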

Additional observations from a re-analysis of the deposited data

Results flagged for a closer look

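In groups of 4 mice, a value was singled out where its gap to the nearest other mouse, as a share of the group's whole range, was above Dixon's 95% critical value for 4 samples. Of 212 groups examined, over genes and list means, 10 passed, and chance gives about 1 in 20.

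Jchain in BACHD+Con had its single read in mouse 4 (0.385 CPM, gap share 1) and Nrm its single read in mouse 1 (0.344 CPM, gap share 1). The value of Cx3cr1 in BACHD+Con mouse 2 was low at 23.1 CPM (0.934). BACHD+Con mouse 3 was high for Pcdhb20 at 34.9 CPM (0.929) and for Kcnip4 at 33.2 CPM (0.87), and it was low in the mean of the autophagy genes at 5.87 log2 CPM (0.878). In Con+Con, mouse 4 was low for Rev3l at 146.2 CPM (0.872), mouse 2 was low in the mean of the autophagy genes at 5.85 log2 CPM (0.852), and mouse 3 was low for Gpr6 at 5.79 CPM (0.877). Con+Con mouse 3, which had the most cortical marker RNA of the 8 mice, was high in the mean of the synaptic vesicle genes at 8.34 log2 CPM (0.928).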

How the results depend on the processing

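Htt was called under every alternative run, with a log2 fold change of 0.94 to 1.19, and every alternative gave Msantd1 a value above 0. The replicate numbers did not pair the mice: same-numbered mice of the 2 groups had correlations of -0.05, -0.11, -0.17 and -0.14, and 0 of 4 correlated best with its own number. With the replicate block 1 gene was called, Htt, higher, and Msantd1 stood at 3.48 (edgeR adjusted p = 0.0623), Drd1 at 0.0075 and Ppp1r1b at 0.027. Leaving out single mice gave 1 to 2 called genes, 1 to 2 of them higher, with Msantd1 at 3.10 to 3.64, 616 to 826 non-overlapping genes and 0 to 1 interaction genes. The same runs gave -0.14 to 0.14 for Foxp2, -0.21 to 0.24 for Drd1, -0.28 to 0.0097 for Drd2, -0.13 to 0.32 for Penk, -0.075 to 0.44 for Tac1, -0.16 to 0.16 for Ppp1r1b, -0.33 to 0.026 for Pde10a, -0.19 to 0.13 for Pde1b, -0.30 to 0.10 for Cnr1, -0.10 to 1.16 for Bdnf, -0.060 to 0.17 for Nop14, -0.44 to 0.17 for Sh3bp2 and -0.042 to 0.048 for Lrpap1, so the direction of these uncalled genes was not settled. Of 38 list medians, 23 took both signs over these runs. List medians ran from -3.73 to 0.27 for choroid plexus, -1.001 to -0.36 for interferon genes, -0.085 to 0.16 for antigen presentation, -0.22 to -0.012 for microglia and 0.086 to 0.29 for beta protocadherins.

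Added after seeing the data, the fit without the 3 libraries lowest in cortical markers (BACHD+Con mice 2 and 3, Con+Con mouse 4) leaves 2 mice against 3. It called 1 gene, Htt, higher, with Msantd1 at 2.76 (adjusted p = 0.988) and 2843 non-overlapping genes; Foxp2 stood at -0.24, Penk at -0.0039, Nop14 at -0.14, Rgs12 at 0.15 and Lrpap1 at 0.030. There the median of choroid plexus genes was -3.40 and the median of antigen presentation genes was -0.062, with -0.27 for thalamic, -1.003 for ependymal, -0.21 for microglial, 0.068 for beta protocadherin, -0.36 for reactive astrocyte and -1.001 for interferon genes. With the cortical marker mean as a covariate, also added, Htt and Msantd1 were the 2 genes called, 2 interaction genes appeared and Foxp2 was at -0.030. Without the low-count filter 723 genes had an unadjusted p under 0.05 and 3 interaction genes were called. DESeq2 called 15 genes between BACHD+Foxp2 and Con+Foxp2 and 3 for the interaction. The causes of these changes were not tested, except that fewer mice make non-overlap easier. At these depths a gene under 1 CPM has about 3 reads or fewer in a library. Differences of such genes rest on very few reads, and none was called between BACHD+Con and Con+Con.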
